A study of Homo sapiens with 6 samples.

Results

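The genes examined were those that build the melanosome, sort proteins into it and move it through the cell. A list of 43 symbols was matched to the gene symbols of a table of 60504 genes, and 42 symbols had a row. STX13 matched none, and STX12, the symbol now in use for syntaxin 13, is given separately and is not counted. The table holds RNA-seq counts from WM164, a human melanoma cell line whose genotype is BRAF V600E. An empty expression vector was carried by 3 libraries (EV) and an HDAC8 expression vector by the other 3 (HDAC8), and the labels number the 3 in each group as biological replicates. Per the methods of the study, the plasmids were transfected with a lipid reagent and the cells kept in hygromycin, so both groups went through the same procedure. Each vector was carried by its own transfected cells, and other differences between these populations cannot be told apart from the vector. The methods do not state whether the replicates of a group came from separate transfections. HDAC8 is a class I histone deacetylase, and the comparison asks how melanosome genes differ when its vector is present.

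Melanosomes are lysosome-related organelles in which pigment cells make and store melanin. The BLOC, AP and VPS complexes are known for carrying pigment enzymes and membrane from endosomes to the maturing organelle, with RAB38 and RAB32 among their partners, and loss of many of their subunits causes Hermansky-Pudlak syndrome. Mature melanosomes are held at the cell periphery by RAB27A, its linker MLPH and the motor MYO5A, and loss of any of these causes Griscelli syndrome.

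The vector's own gene was checked first. In counts normalized by DESeq2, HDAC8 stood at 384, 404 and 479 with the empty vector and at 485, 446 and 474 with the HDAC8 vector, and the groups overlapped (log2 fold change 0.15, SE 0.28, DESeq2 adjusted p = 0.856). The transcript therefore does not check the labels. Total counts ran from 34741083 to 42041462 per library. HDAC8 1 stood apart on the second principal component (10.5, against -8.17 and -4.01 in the other HDAC8 libraries), which carried 14.1% of the variance. Mitochondrially encoded transcripts took 9.66% to 12.8% of the counts in EV and 4.46% to 7.94% in HDAC8. Of 8 melanocyte lineage markers, all had counts in EV, with a sum of 244961 to 328760 normalized counts against 137043 to 182218 in HDAC8, and TYRP1 was the lowest with at most 62.9. PMEL made up most of each sum. By the call defined below, PMEL, MLANA, TYR, DCT and S100B were lower. MITF (log2 fold change -0.20, DESeq2 adjusted p = 0.544), SOX10 (-0.33, DESeq2 adjusted p = 0.211) and TYRP1 were not called. Markers of other cells were low, with sums of 163 to 303 against 166 to 176 for 5 keratinocyte genes, 2489 to 2877 against 1461 to 2423 for 5 fibroblast genes (mostly LUM), 52.3 to 230 against 130 to 248 for 3 leukocyte genes and 97.5 to 203 against 114 to 218 for 3 endothelial genes. KRT1, DCN and CDH5 had no counts in any library, PTPRC reached at most 2.57 normalized counts, and CD3E was at 0 in EV and at 78.7, 91.1 and 50.1 in HDAC8. The fibroblast gene PDGFRA had 113, 170 and 138 in EV and 327, 236 and 376 in HDAC8. By the same call PDGFRA was higher (log2 fold change 1.16, DESeq2 adjusted p = 0.0377). COL1A1, COL1A2 and LUM had log2 fold changes below 0 and were not called. The part of the mitochondrial share and of these marker sums in the results was not tested.

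Of the 42 melanosome genes, 7 were lower and 1 was higher in the HDAC8 libraries. A call required both a DESeq2 adjusted p under 0.05 and a log2 fold change of 0.58 or more in size. In bulk RNA, fewer cells expressing a gene and less transcript per cell cannot be told apart. The lower genes were MYO5A, APOE, RAB27A, RAB38, RAB32, BLOC1S6 and LYST, with log2 fold changes from -1.51 to -0.61, and the higher gene was ATP7A (0.74). Over all genes with an adjusted p, 11% were called, 5.44% lower and 5.57% higher. Among genes whose mean normalized count reached 150, a limit chosen after the values were seen that 41 of the 42 pass, 15.4% were called, 7.35% lower and 8.03% higher. The members' share was 19.0% (8 of 42). Their median log2 fold change was -0.06, against -0.00 over all genes tested. The groups did not overlap in 12 members, where the share over all genes tested was 24%. In 9 of these every HDAC8 library was below every EV library (12.7% over all genes) and in 3 every one was above (11.3%). Among genes whose mean reached 150 the shares were 36.9%, 19.1% and 17.8%, so the count of members without overlap was not above that background. For 13 members the 95% interval of the log2 fold change lay within 0.58 of zero on either side.

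**Figure D1:**
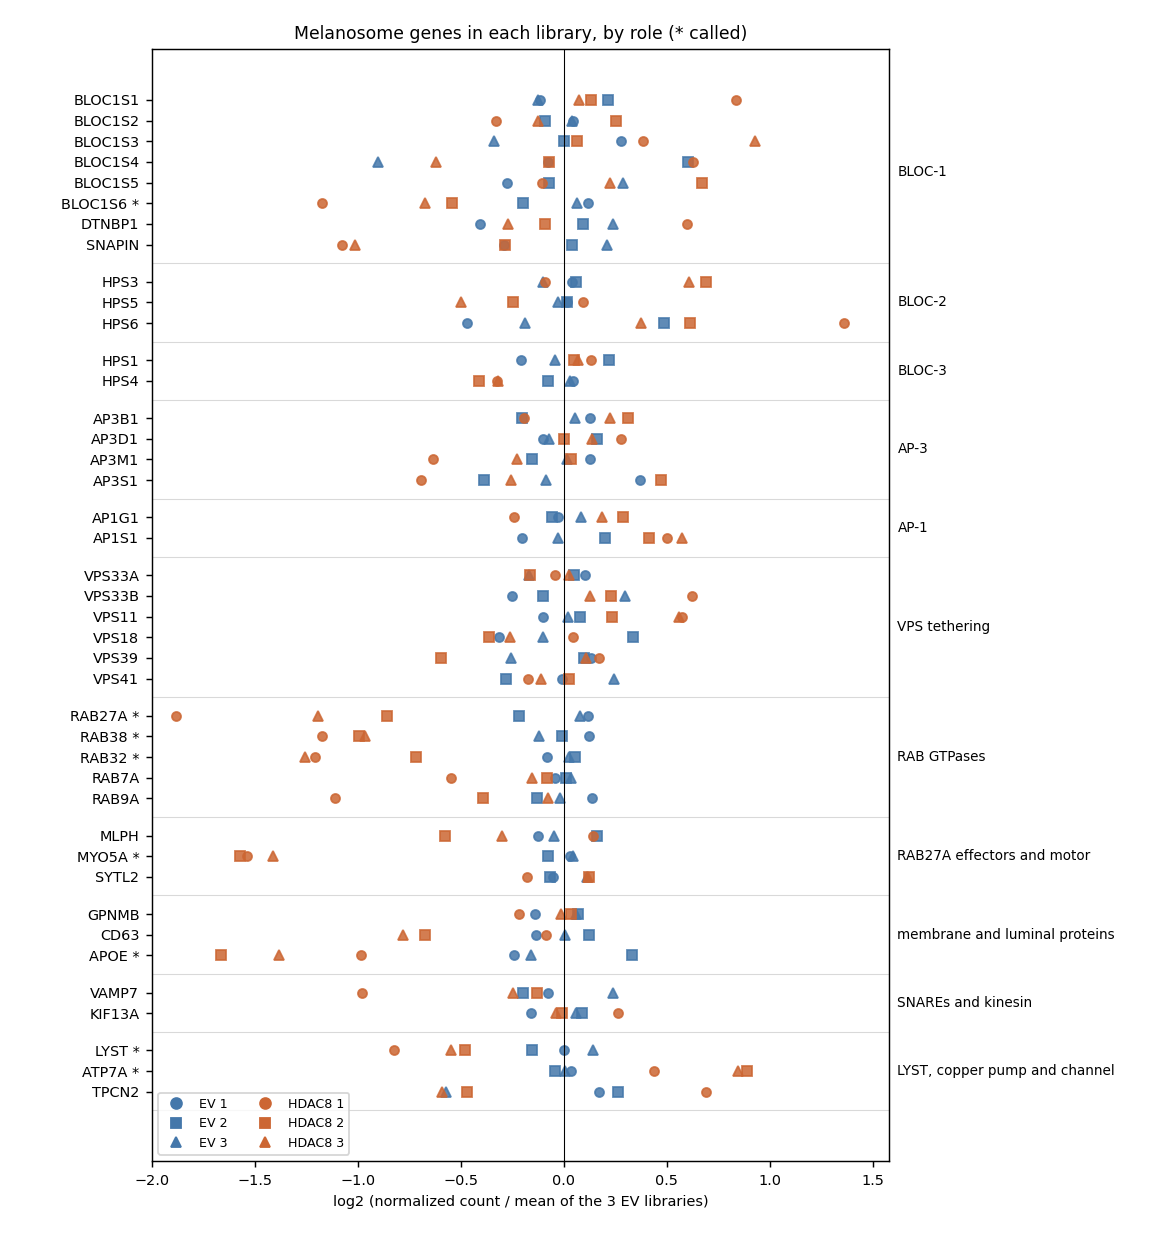
Each row is a melanosome gene and each symbol a library, placed by the log2 of its normalized count over the mean of the 3 EV libraries; roles are named at the right and called genes carry an asterisk. Most rows mix blue and orange around zero. MYO5A, APOE, RAB27A, RAB38, RAB32, BLOC1S6 and LYST have every orange symbol to the left of the blue ones, and ATP7A every one to the right. The uncalled HPS4 and RAB7A also separate to the left, and the uncalled AP1S1 and VPS11 to the right. MYRIP, near the floor, is left out.

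By role, of the 25 subunits of the sorting and tethering complexes (BLOC-1, BLOC-2, BLOC-3, AP-3, AP-1 and VPS), 1 was called (4%), and their median log2 fold change was 0.08. Of the 17 genes in other roles, 7 were called (41.2%) and the median was -0.41. Among these, 3 of the 5 RAB GTPases were called lower and all 5 had a log2 fold change below 0. Over all genes 11% were called, and 15.4% of those whose mean reached 150. Of the called genes, BLOC1S6, MYO5A and RAB27A lie in the same stretch of chromosome 15, described below. The difference between roles was not tested, since the split was drawn with results of these data known.

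Because the study deals with the transcription factors MITF and JUN, the start regions of the genes were searched for the letters each is known to recognise. MITF is known to bind the E-box CACGTG, which reads alike on both strands. It also binds a related box, spelled CATGTG when read along the gene and CACATG from the opposite strand. JUN is known to bind the AP-1 element, spelled TGACTCA along the gene and TGAGTCA from the opposite strand. The windows were the 250 bases before each RefSeq transcript start (GRCh38.p14), and 33 of the 42 genes had an entry. The genes without one were RAB38, VPS18, HPS1, AP3D1, VPS33B, VPS33A, SYTL2, AP3B1 and BLOC1S4. CACGTG stood in 13.4% of the 67 windows of the members (BLOC1S1, BLOC1S3, HPS3, HPS5, VPS11, MLPH, CD63 and ATP7A) against 6.34% of all 35116 windows. CATGTG stood in 13.4% (BLOC1S3, HPS4, AP3S1, MYRIP, GPNMB, CD63 and LYST) against 9.42%, and TGACTCA in 5.97% (GPNMB, CD63 and LYST) against 4.20%. Windows of the same gene can overlap and count a site again, as in LYST, AP3S1 and VPS11. Counted by gene, CACGTG stood in 8 of 33 members against 7.73% of 27305 genes. By the same count CATGTG stood in 7 against 11.5%, and TGACTCA in 3 against 5.19%. A gene was counted when any of its windows matched. The members had more windows per gene (67 for 33) than all genes (35116 for 27305), which raises their share in the count by gene. The background was every gene with an entry, expressed or not. In MYRIP the matches on the 2 strands overlap. Of 7 called genes with an entry, 2 held a match (LYST and ATP7A), against 11 of 26 genes that were not called. The windows of 20 members held none of these letters. A match describes the sequence and shows no binding.

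The stretches below show the matches, in capitals and read 5′ to 3′ along the gene, in the 2 called genes that held any (LYST and ATP7A), in the other 2 genes that hold an AP-1 element (GPNMB and CD63) and in HPS3, a BLOC-2 gene with an E-box close to its start. LYST lies at chr1:235883723-235883858 (minus strand), with its first match at -125 and its last at -35 from the transcript start. ATP7A lies at chrX:77910535-77910580 (plus strand, match at -138), GPNMB at chr7:23246621-23246738 (plus strand, matches from -134 to -62), CD63 at chr12:55729086-55729209 (minus strand, matches from -180 to -102) and HPS3 at chr3:149129588-149129633 (plus strand, match at -30).
LYST: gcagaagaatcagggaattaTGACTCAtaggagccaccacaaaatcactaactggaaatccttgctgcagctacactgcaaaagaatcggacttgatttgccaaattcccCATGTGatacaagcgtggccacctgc
ATP7A: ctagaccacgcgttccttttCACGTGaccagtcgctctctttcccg
GPNMB: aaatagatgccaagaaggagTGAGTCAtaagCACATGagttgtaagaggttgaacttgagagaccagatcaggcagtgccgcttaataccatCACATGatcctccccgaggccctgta
CD63: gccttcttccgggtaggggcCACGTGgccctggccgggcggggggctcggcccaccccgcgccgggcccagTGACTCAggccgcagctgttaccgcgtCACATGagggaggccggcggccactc
HPS3: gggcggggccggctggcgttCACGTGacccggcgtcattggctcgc

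Among the RAB GTPases, small proteins that mark organelle membranes, RAB27A, RAB38 and RAB32 were lower. RAB27A (ENSG00000069974, chromosome 15, 55202966 to 55319113, minus strand), which recruits mature melanosomes to actin, had 5285, 4201 and 5150.2 normalized counts in EV and 1323, 2686 and 2131 in HDAC8. The lowest EV value was above the highest HDAC8 value, and the mean fell from 4879 ± 591 to 2047 ± 686 (SD, n = 3; log2 fold change -1.25, SE 0.22, DESeq2 adjusted p = 8.84e-07). HDAC8 1 was the lowest, and without it the log2 fold change was -1.02. RAB38 (ENSG00000123892, chromosome 11, 88113251 to 88175443, minus strand), which directs cargo from endosomes to melanosomes, had 2225, 2031 and 1886 in EV and 906, 1027 and 1049.8 in HDAC8. The HDAC8 libraries lay close together and well under all EV libraries (2047 ± 170.4 against 994 ± 77.6, SD, n = 3; log2 fold change -1.04, SE 0.19, DESeq2 adjusted p = 7.98e-07). RAB32, the close relative of RAB38 (ENSG00000118508, chromosome 6, 146543833 to 146554953, plus strand), had 625, 686 and 674 against 286, 401 and 277. Its groups did not overlap either (log2 fold change -1.04, SE 0.29, DESeq2 adjusted p = 0.00427). The other two RABs serve late endosomes in all cells and were not called. RAB7A had 9241, 9599.9 and 9771 against 6517, 9009 and 8576 normalized counts, with HDAC8 1 far below the EV values and the other two HDAC8 libraries closer under them (log2 fold change -0.25, DESeq2 adjusted p = 0.336). RAB9A had a log2 fold change of -0.47 with a 95% interval from -1.16 to 0.23. Outside the list, 2 of 15 other RABs and their regulators were called (13.3%, against 11% over all genes). These were RAB5B (log2 fold change -0.82, DESeq2 adjusted p = 3.23e-05) and RAB27B, and both were lower. Over all genes 5.44% were called lower, and 7.35% of those whose mean reached 150. Whether the RABs of the list differed from the others was not tested.

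The myosin that RAB27A recruits had the largest fall in log2 fold change of the members. MYO5A (ENSG00000197535, chromosome 15, 52307281 to 52529132, minus strand), the actin motor of melanosomes, had 18465, 17103 and 18628 normalized counts in EV and 6222, 6071 and 6782 in HDAC8. Replicates lay close together in both groups, at 18065 ± 837 against 6359 ± 374 (SD, n = 3), a 2.84-fold lower mean (log2 fold change -1.51, SE 0.12, DESeq2 adjusted p = 3.92e-31). MLPH, which links RAB27A to MYO5A, had 4393, 5359 and 4649.8 against 5291, 3213 and 3892. HDAC8 1 sat among the EV values and the other two HDAC8 libraries below them, so the groups overlapped (log2 fold change -0.22, 95% interval -0.59 to 0.15, DESeq2 adjusted p = 0.575). The value for MLPH was -0.44 without HDAC8 1 (DESeq2 adjusted p = 0.0200), short of the fold change threshold, and -0.06 without HDAC8 2. SYTL2, another RAB27A effector, had 3747, 3717 and 4209 against 3438, 4239 and 4219.7, with a log2 fold change of 0.03 (95% interval -0.28 to 0.33). MYRIP, a linker to another myosin, had 0 to 13.1 normalized counts in EV and 0 to 17.1 in HDAC8, which is around the floor of 3 counts (2.57 to 3.27 normalized counts), and no difference was detectable at this depth. Whether MLPH differed from RAB27A and MYO5A was not tested.

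**Figure D2:**
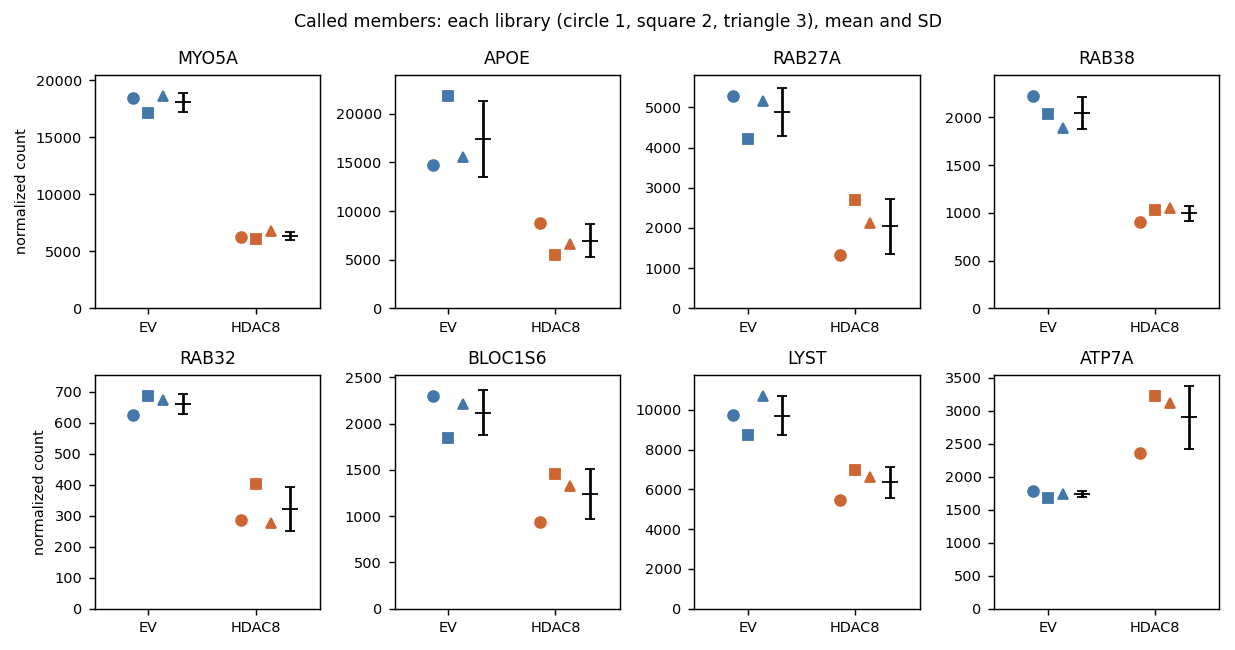
Normalized counts of the 8 called genes in each library, with the mean and SD of each group (n = 3) as a bar at the right; every axis starts at 0. The groups do not overlap in any panel, and the gap is widest for MYO5A, from 18065 ± 837 to 6359 ± 374.

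Among proteins of the melanosome membrane and lumen, APOE, an apolipoprotein on which fibrils of the pigment protein PMEL form, was lower. APOE (ENSG00000130203, chromosome 19, 44905791 to 44909393, plus strand) had 14689, 21840 and 15545 normalized counts in EV and 8776, 5475 and 6663 in HDAC8. Its spread was wide, with EV 2 far above the other EV libraries, but the groups did not overlap (17358 ± 3905 against 6971 ± 1672, SD, n = 3; log2 fold change -1.32, SE 0.19, DESeq2 adjusted p = 4.15e-10). CD63, a tetraspanin that sorts PMEL into vesicles inside early melanosomes, had 25819.7, 30849 and 28424 against 26664, 17741 and 16527. HDAC8 1 was within the EV range while HDAC8 2 and HDAC8 3 lay far below it. CD63 passed the adjusted p but fell short of the fold change threshold (log2 fold change -0.48, SE 0.17, DESeq2 adjusted p = 0.0439), and it was called without HDAC8 1 (log2 fold change -0.73, DESeq2 adjusted p = 3.67e-11). The adjusted p of CD63 was lost in 10 of 14 alternatives, edgeR (0.128) and limma (0.0576) among them, and reached 0.289 without HDAC8 3. GPNMB, a glycoprotein related to PMEL, had 35592, 41172 and 40852 against 33717, 40165 and 38787. Its groups overlapped, and its log2 fold change of -0.06 had a 95% interval from -0.31 to 0.19. The 3 genes of this role thus ranged from a called fall to no detectable change.

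BLOC-1, an endosomal complex of 8 subunits, sends tubules towards melanosomes. BLOC1S6, also known as pallidin (ENSG00000104164, chromosome 15, 45587214 to 45615945, plus strand), had 2296, 1845 and 2215 normalized counts in EV and 937, 1452 and 1329 in HDAC8. All HDAC8 libraries were below all EV libraries (2119 ± 240.3 against 1239 ± 269, SD, n = 3; log2 fold change -0.77, SE 0.21, DESeq2 adjusted p = 0.00398), and the call was lost without EV 1 (DESeq2 adjusted p = 0.0643) or EV 3 (DESeq2 adjusted p = 0.0506). SNAPIN, a subunit shared with other trafficking machinery, had 355, 446 and 503 against 206, 356 and 216. Its log2 fold change of -0.75 was like that of BLOC1S6, but HDAC8 2 reached the EV range and the gene was not called (SE 0.36, DESeq2 adjusted p = 0.171). The other 6 subunits had log2 fold changes from -0.05 (BLOC1S2) to 0.50 (BLOC1S3), with overlapping groups. BLOC1S1, BLOC1S5, DTNBP1 and BLOC1S4 were at 0.39, 0.30, 0.13 and 0.07. These are low genes, and the 95% interval of BLOC1S4, the lowest in counts, ran from -0.99 to 1.12.

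BLOC-2 guides those tubules to the melanosome, and none of its 3 subunits was called. HPS3 had 1806, 1832 and 1638 normalized counts in EV and 1652, 2837 and 2683 in HDAC8. HDAC8 1 lay within the EV range and the other two lay above it (log2 fold change 0.44, SE 0.22, DESeq2 adjusted p = 0.183), and the gene was called higher without HDAC8 1 (0.65, DESeq2 adjusted p = 4.82e-04). HPS6 had 284, 551 and 345 against 1012, 602 and 509.6, the largest value of the subunits but with EV 2 above HDAC8 3 (log2 fold change 0.85, SE 0.35, DESeq2 adjusted p = 0.0942). It was called without EV 2 (1.17, DESeq2 adjusted p = 0.0271), while without HDAC8 1 its log2 fold change was 0.50 (DESeq2 adjusted p = 0.416). HPS5 was at -0.20 (95% interval -0.64 to 0.25). BLOC-3 is the exchange factor that loads RAB32 and RAB38 with GTP. Its subunit HPS4 had 9878, 9082 and 9757 against 7644, 7183 and 7656. The HDAC8 values were tightly grouped under all EV values, and the difference was small, with an adjusted p under the threshold and a fold change short of it (log2 fold change -0.35, SE 0.13, DESeq2 adjusted p = 0.0404). The adjusted p of HPS4 too was lost in 10 of 14 alternatives, such as edgeR (0.104), limma (0.0784) and the fit without EV 1 (0.228). HPS1, its partner, was at 0.08 (95% interval -0.29 to 0.45).

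The adaptor complexes AP-3 and AP-1, which pick cargo such as tyrosinase at endosomes, had no called subunit. AP3D1, the most abundant of AP-3, had 8391, 10083 and 8557 normalized counts in EV and 10934, 9001 and 9891 in HDAC8, with overlapping groups (log2 fold change 0.14, 95% interval -0.14 to 0.42). AP3B1, AP3S1 and AP3M1 were at 0.13, -0.08 and -0.25. AP1S1 of AP-1 had 1092, 1443 and 1231 against 1774, 1670.4 and 1868. All HDAC8 libraries were above all EV libraries, yet the gene did not pass the adjusted p (log2 fold change 0.50, SE 0.19, DESeq2 adjusted p = 0.0677). AP1G1 had 5768, 5651 and 6233 against 4974, 7175 and 6687, with HDAC8 1 lowest and the other two HDAC8 libraries highest (log2 fold change 0.09).

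The VPS proteins of the list are subunits of tethering complexes that dock endosomes, lysosomes and related organelles. VPS41, the one with the highest counts, had 3699, 3063 and 4404 normalized counts in EV and 3299, 3781 and 3451 in HDAC8, with the HDAC8 values inside the EV range (log2 fold change -0.08, 95% interval -0.42 to 0.25). VPS11 had 1186, 1342 and 1292 against 1895, 1497 and 1877. Its HDAC8 libraries were all above its EV libraries without passing the adjusted p (log2 fold change 0.46, SE 0.19, DESeq2 adjusted p = 0.0922). VPS33B, VPS33A, VPS39 and VPS18 ran from 0.34 to -0.18, and their groups overlapped. KIF13A, a kinesin that moves endosomal tubules, had 2132, 2532 and 2479 against 2852, 2366 and 2316 (log2 fold change 0.08, 95% interval -0.26 to 0.41). VAMP7, a SNARE of melanosome fusion, had 2029, 1864 and 2521 against 1083, 1951 and 1800.04, with HDAC8 1 far below the rest (log2 fold change -0.41, DESeq2 adjusted p = 0.292). STX12 had 1205, 1036 and 846 against 876, 1578 and 1282 and was not called (log2 fold change 0.28, DESeq2 adjusted p = 0.608).

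LYST, ATP7A and TPCN2 act on the organelle in other ways. LYST (ENSG00000143669, chromosome 1, 235661041 to 235883724, minus strand), the gene of Chediak-Higashi syndrome, in which melanosomes and lysosomes are enlarged, had 9715, 8715 and 10689 normalized counts in EV and 5477, 6955 and 6627 in HDAC8. The groups did not overlap (9706 ± 987 against 6353 ± 776, SD, n = 3; log2 fold change -0.61, SE 0.15, DESeq2 adjusted p = 7.58e-04). LYST was the called gene nearest to the fold change threshold, and CD63 was the nearest outside it among genes past the adjusted p. Its log2 fold change fell short of the threshold without HDAC8 1 (-0.52), without EV 3 (-0.54) and with size factors from total counts (-0.57), each time with the adjusted p still past its own threshold. ATP7A (ENSG00000165240, chromosome X, 77910690 to 78050395, plus strand), the copper pump that supplies tyrosinase, had 1783, 1687 and 1747 against 2357, 3224 and 3124. The EV values lay within a narrow band and every HDAC8 value above it (1739 ± 48.5 against 2902 ± 475, SD, n = 3; log2 fold change 0.74, SE 0.18, DESeq2 adjusted p = 7.28e-04). TPCN2, a melanosome cation channel, had 318, 339 and 190.1 against 456, 204 and 187, which gives a log2 fold change of 0.00 with a wide 95% interval (-0.87 to 0.87).

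**Figure D3:**
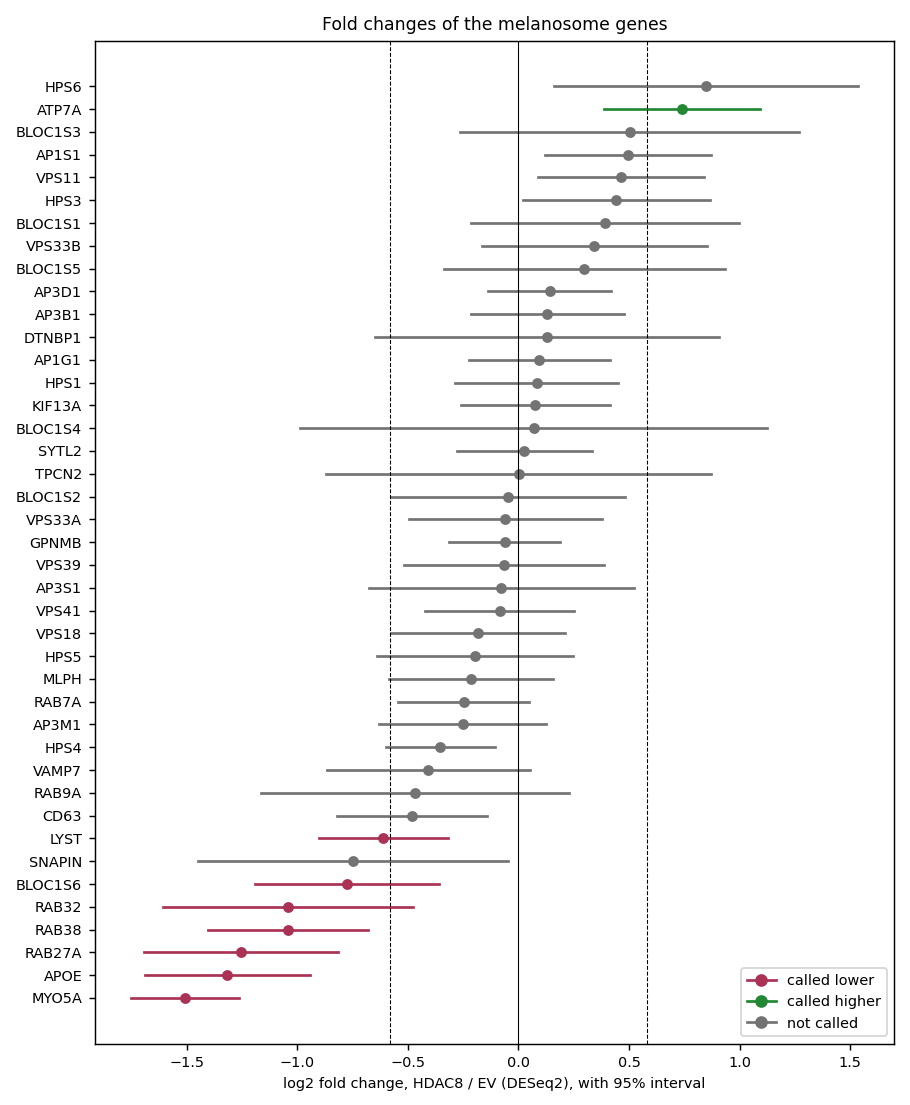
Log2 fold change (HDAC8 over EV, DESeq2) of 41 melanosome genes with 95% intervals, ordered by size; dashed lines mark 0.58 on either side of 0 and colours mark calls. MYO5A (-1.51), APOE (-1.32) and RAB27A (-1.25) lie farthest left, and HPS6 (0.85, interval 0.16 to 1.54) lies farthest right. HPS6 was not called, with a DESeq2 adjusted p of 0.0942. The intervals, unlike the calls, are not adjusted for the number of genes. MYRIP is left out.

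Levels of different genes were compared per kilobase of the canonical transcript, as normalized counts. CD63 was the highest in EV (27726 ± 2459, SD, n = 3), followed by APOE (14887 ± 3349) and GPNMB (14795 ± 1183), which did not differ beyond their spread, and then by RAB7A (4365 ± 124). MYO5A (1489 ± 69.0), RAB38 (1430 ± 119) and RAB27A (1415 ± 171) came close together at this level in EV, within their SDs of each other. In HDAC8 they stood at 524 ± 30.9, 694 ± 54.2 and 594 ± 199. GPNMB, at 14172 ± 1281 in HDAC8, was then above APOE at 5979 ± 1434. TPCN2 (56.8 ± 16.2) was the lowest in EV but for MYRIP (0.93 ± 1.43).

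Several of the lower genes sit in stretches of chromosome where the neighbours were lower as well, an observation made after the data were seen. Positions are those of GENCODE release 44 (GRCh38). Neighbours are the 10 nearest genes on either side, leaving out members and genes whose mean normalized count was under 150. VAMP7 had only 11 in all. The neighbours of a member spanned from 0.84 Mb (VPS11) to 26.7 Mb (ATP7A), so they were not equally near. Genes of the pigment proteins that melanosomes carry (cargo) were not left out. BLOC1S6, MYO5A and RAB27A lie on chromosome 15 between 45587214 and 55319113. Of the 26 other expressed genes in that stretch, 26 had a log2 fold change below 0, 11 were called lower (42.3%) and 0 higher, and their median was -0.52. The cargo gene SLC24A5, itself called lower, was among the 26. Over the 404 expressed genes of chromosome 15 the median was -0.10 and 12.4% were called lower. The median of these 26 genes relative to the EV mean was 0.07, -0.17 and 0.06 in EV 1, EV 2 and EV 3 and -0.79, -0.43 and -0.59 in HDAC8 1, HDAC8 2 and HDAC8 3. The lowering of the stretch thus stood in each HDAC8 library and was deepest in HDAC8 1.

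The neighbours of MYO5A had a median log2 fold change of -0.54 and MYO5A itself lay 0.96 below them (member minus neighbours -0.96). RAB27A, some of whose neighbours it shares with MYO5A, had the same neighbour median of -0.54 and a difference of -0.71, and for BLOC1S6 the values were -0.47 and -0.30. LYST, on chromosome 1, had neighbours at -0.49 and differed from them by -0.12. RAB38 on chromosome 11 had neighbours at -0.44 (difference -0.61) and RAB32 on chromosome 6 at -0.24 (difference -0.80). The neighbours of RAB38 included the cargo gene TYR, also called lower, and those of BLOC1S6 included SLC24A5. Of the 7 lower genes, 5 had a neighbour median at or below the 5th percentile of the same measure over 11780 expressed genes (-0.39) and 6 one below the 25th percentile (-0.19), against 7 of the 34 members that were not called. APOE was the exception among the lower genes, with neighbours at 0.26 and a difference of -1.58, and ATP7A rose among neighbours at -0.10. Copy number was not measured in these libraries, and the part of the surroundings in the members' changes was not tested.

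**Figure D4:**
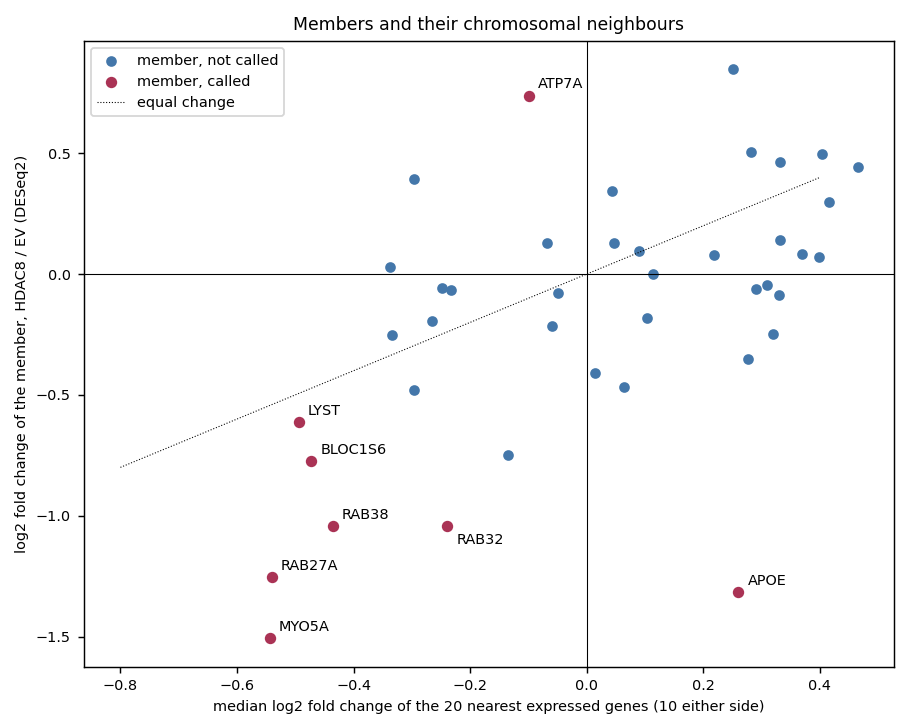
Each point is a melanosome gene (MYRIP left out), with the median log2 fold change of its neighbouring expressed genes on the x axis and its own on the y axis, both HDAC8 over EV by DESeq2; the dotted line marks equal change. LYST lies near the line (-0.49 and -0.61), MYO5A and RAB27A lie below it among lowered neighbours, and APOE (neighbours at 0.26) and ATP7A (at -0.10) part from theirs in sign.

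Other genes of the same transport routes came from a list of 67, of which 65 had an adjusted p. DESeq2 called 6 of them higher and 6 lower, which is 18.5% of those with an adjusted p. The share was 19.0% for the members and 11% over all genes, or 15.4% among genes whose mean reached 150. The median log2 fold change of the list was 0.04. The largest fall was that of RAB27B, the paralogue of RAB27A, at 203, 132 and 287 normalized counts in EV and 13.7, 99.3 and 16.3 in HDAC8 (log2 fold change -2.27, SE 0.73, DESeq2 adjusted p = 0.0198). MYO5B, the paralogue of MYO5A known from recycling endosomes, went the other way, with 95.4, 38.3 and 28.6 against 628, 836 and 617 (log2 fold change 3.68, SE 0.43, DESeq2 adjusted p = 1.45e-15). Of the pairs named here, the myosins thus moved in opposite directions and the RAB27 genes in the same one. MYO5C, also in the list, was at 1.02 and not called. The lists hold other pairs, such as RAB7A and RAB7B (log2 fold changes -0.25 and 1.00, neither called). CD9, a tetraspanin like CD63, had 137, 93.4 and 66.0 against 1188, 1602 and 1472 (log2 fold change 3.85, DESeq2 adjusted p = 8.59e-36), and ANXA2, a membrane-binding annexin, was higher by 1.06 on the log2 scale with groups that did not overlap. The remaining higher genes were AP1M1 (0.84), VIPAS39 (0.78) and the retromer subunit VPS35 (0.73). The remaining lower genes were the autophagy receptor OPTN (-1.01), RAB5B (-0.82), the SNAREs STX7 (-0.72) and SNAP23 (-0.59), and AP3S2 (-0.59).

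The pigment proteins that melanosomes carry are given as counts only. Of 9 cargo genes, 6 were called lower and 0 higher, and the median log2 fold change was -1.62, with GPR143, TYRP1 and OCA2 not called. In 8 of the 9 every HDAC8 library was below every EV library, the uncalled TYRP1 and OCA2 among them. That share was 12.7% over all genes tested and 19.1% of those whose mean reached 150. Only in GPR143 did the groups overlap. The called share was 19.0% for the 42 members and 66.7% for the cargo, a difference that was not tested. The members include proteins of the melanosome membrane and lumen (GPNMB, CD63 and APOE), so the comparison does not part carriers from cargo.

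**Figure D5:**
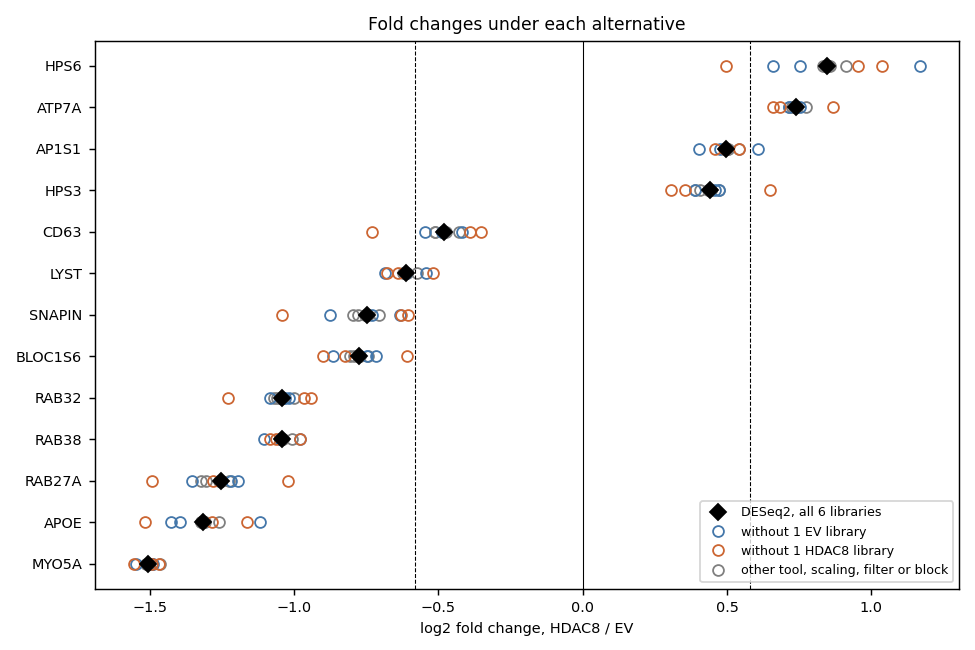
Log2 fold change (HDAC8 over EV) of the called genes and of those called under some alternative; the diamond is DESeq2 on all 6 libraries, open circles are fits without 1 library or with another tool, scaling, filter or block, and dashed lines mark 0.58 on either side of 0. MYO5A stays between -1.55 and -1.47, while LYST, CD63, HPS3, AP1S1 and HPS6 cross the fold change threshold in some fits.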

How the data were processed

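RNA was sequenced in 6 libraries whose labels give a biological replicate number, and the labels and the study's methods name different extraction and library kits. Reads were trimmed (Trimmomatic), aligned (STAR) and assigned to genes (RSEM) by the authors, and the deposited values are expected counts that were not scaled between libraries. Genome build, annotation and strand setting are not given in the sources used here, so genes that overlap or have near-identical copies are uncertain. Samples were grouped by the labelled vector.

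Expected counts were rounded and fitted in DESeq2 1.42.0 (R 4.3.3, size factors 0.918 to 1.17, no covariates). Its Wald test, two-sided, was run on the 26162 genes whose counts summed to 10 or more, with Benjamini-Hochberg adjustment over the 21021 to which DESeq2 gave an adjusted p and the thresholds of the study's methods. Intervals are at the 95% level. Normalized counts are counts divided by the size factor, and no gene at 3 counts or fewer can be told from 0, a floor that covers counting error only. P-values measure the spread between 3 libraries a group. The members, the lists of other genes and the roles were chosen with earlier results of these data known. Named with values are HDAC8, called members, members past the adjusted p alone, at least 1 member of each role, and called genes of the other list. Members whose groups did not overlap or whose call depended on a library were also named, and these were chosen after their values were seen. Positions and canonical transcript lengths came from GENCODE release 44 by Ensembl identifier, which 56558 identifiers matched.

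Alternatives were edgeR 4.0.16 (quasi-likelihood) and limma 3.58.1 (voom), each after TMM scaling, size factors set by total count or upper quartile, other count filters and thresholds, a replicate block, a fit without mitochondrial genes, and each library left out. The median of the genes around MYO5A was added after the data were seen. Same-numbered libraries of the groups did not deviate together (r = -0.14, -0.36 and 0.19), so the numbers were not taken as pairs. No pair of libraries of a group agreed within sampling noise (chi-square 27.6 to 168 times its degrees of freedom). The fits were tested on simulated data. Of the marker genes, 1 is not reported here.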

Additional observations from a re-analysis of the deposited data

How the results depend on the processing

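Of the 42 members, 22 kept direction and call in every alternative that could be fitted, and 6 of the 8 called genes did so, with BLOC1S6 and LYST as the exceptions described with their values. All 8 calls were kept by edgeR in the same direction. Members called lower numbered 7, with 5 to 8 across the fits without 1 library, and 7 with the replicate block. Members called higher numbered 1 and ran from 1 to 3 without 1 library (3 without EV 2, with HPS6 and AP1S1 added, and 2 without HDAC8 1, with HPS3 added). They were 2 when each library had to hold at least 10 counts and 2 at an unadjusted p, HPS6 being added in each. SNAPIN was called lower without HDAC8 2. Other trafficking genes called lower numbered 6, with 2 to 6 across those fits (2 without EV 1 and 3 without EV 3), and with the block 5 were higher and 5 lower.

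Over all genes, the calls without 1 library ran from 877 to 1218 higher and from 746 (without EV 3) to 1378 lower. At an unadjusted p there were 1839 higher and 1856 lower genes, and with size factors from total counts 1318 higher and 1019 lower against 1170 and 1143. The replicate block gave 1075 and 1078 and changed no call among the members. The members' median moved from -0.06 to -0.02 with size factors from total counts, and from -0.13 to -0.02 across fits without 1 library. The median of the 26 other genes around MYO5A stayed between -0.63 and -0.49 in all alternatives.

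The members that changed sign were 13 of those not called. Without 1 library, the log2 fold change ran from -0.0084 to 0.23 for AP1G1, -0.45 to 0.15 for AP3S1, -0.22 to 0.075 for BLOC1S2, -0.32 to 0.50 for BLOC1S4, -0.18 to 0.29 for DTNBP1, -0.13 to 0.0082 for GPNMB, -0.013 to 0.20 for HPS1, -0.026 to 0.13 for KIF13A, -0.019 to 0.12 for SYTL2, -0.53 to 0.22 for TPCN2, -0.32 to 0.019 for VPS18, -0.20 to 0.15 for VPS39 and -0.21 to 0.049 for VPS41. TPCN2 was also at -0.0023 by edgeR, -0.036 by limma and -0.076 with the replicate block. The cause of these shifts was not tested. At a depth near the floor no difference was detectable for MYRIP, which could not be fitted in every alternative.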
